A study of Mus musculus with 51 samples.

Results

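The genes of the subcortical maternal complex and the oocyte Nlrp family were followed from the egg to the blastocyst in fertilised and in cloned mouse embryos. The set holds Nlrp5, Ooep, Tle6 and Khdc3 of the complex, Padi6 of the cytoplasmic lattices, and Nlrp14, Nlrp9b, Nlrp4e, Nlrp4f and Nlrp2 of the Nlrp family. A gene entered through every probe set whose platform symbol was exactly its name, and its main probe set was the one with the largest SD over all 51 arrays. Of the 10 genes 9 had a probe set, 1 each, among the 18194 genes tested. No probe set carried Nlrp2 as its only symbol, so Nlrp2 was not analysed here.

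Each array held the amplified RNA of 1 single oocyte or embryo. There were 5 cloned and 3 in vitro fertilised (IVF) embryos at each of 6 stages, and 3 metaphase II (MII) oocytes at the start. Clones carried the nucleus of a B6CBF1 Sertoli cell, which nurses germ cells in the testis, in a B6D2F1 oocyte that had been activated. IVF embryos had B6D2F1 parents on both sides, and the MII oocytes were B6D2F1. Clones and IVF embryos therefore differed in nuclear genotype as well as in origin, and both shared the B6D2F1 oocyte cytoplasm. Sex was not matched either, since donor nuclei were male by label and Y-linked signal was mixed among IVF embryos. Embryos were taken 16 (1-cell), 32 (2-cell), 48 (4-cell), 62 (8-cell), 72 (morula) and 84 hours (blastocyst) after sperm addition or activation. All embryos grew in KSOM medium.

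The subcortical maternal complex is a protein assembly under the membrane of the egg and of the outer side of early blastomeres. In the mouse its core is made of NLRP5 (also called MATER), OOEP (FLOPED), TLE6 and KHDC3 (FILIA), and embryos of mothers that lack Nlrp5, Ooep, Tle6 or Padi6 mostly arrest in early cleavage. The genes are transcribed in the growing oocyte, and in the mouse the proteins are known to outlast their transcripts. Only RNA was measured here. The deposited log2 values were centred for each probe set, so a value is a difference from that probe set's own baseline, and levels of different genes were not compared. A value is relative to the total signal of its array, and in a whole embryo fewer cells of a type and less RNA per cell cannot be told apart.

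The members lie on 5 chromosomes of the GRCm38.p6 assembly. Nlrp5 (chromosome 7, 23385889 to 23441923) and Nlrp4e (chromosome 7, 23301192 to 23362277) are neighbours, and Nlrp9b (chromosome 7, 19991393 to 20062942) and Nlrp14 (chromosome 7, 107113455 to 107198103) are on the same chromosome. Ooep (chromosome 9, 78376903 to 78378588) and Khdc3 (chromosome 9, 73101381 to 73106631) share chromosome 9. Tle6 is on chromosome 10 (81590904 to 81601185), Padi6 on chromosome 4 (140727355 to 140742643) and Nlrp4f on chromosome 13 (65177111 to 65205716).

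RefSeq's promoter table for GRCm38.p6 gave 11 promoters for 9 of the 10 genes, each 300 bases long with 250 before and 50 after the transcript start, and Nlrp14 was not matched. Both strands were searched for the E-box CANNTG, read by bHLH factors such as the oocyte factor FIGLA, and for TAATTG and TAATTA, read by the oocyte homeobox factor NOBOX, and for TATAAA. An E-box was found in 10 of the 11 promoters, against 72.3% of all 32851 promoters in the table. TAATTG was found in 3 of the 11, those of Ooep, Padi6 and Nlrp9b, against 8.0% of all promoters, and TAATTA in 1, that of Nlrp5, against 5.3%. TATAAA was found in 2 of the 11, that of Nlrp9b and that of 1 start of Nlrp5, against 13.6%. Both of these lie inside the gene bounds given above. The palindromic E-box CACGTG was found in 1, that of Tle6, against 7.2%. The matches describe the letters and say nothing of binding. The promoters of 4 genes are shown because the results turn on these genes: Nlrp5 and Nlrp9b for their fall, Ooep for its return and Khdc3 for its opposite course. Each is written in the direction of the gene with the motifs above in capitals, on either strand, and the CACATGTG of Khdc3 holds a pair of overlapping E-boxes. They lie at chr7:23385639-23385938 on the plus strand for Nlrp5, chr9:78378539-78378838 on the minus strand for Ooep, chr9:73102148-73102447 on the plus strand for Khdc3 and chr7:20007773-20008072 on the plus strand for Nlrp9b. Those of Khdc3 and Nlrp9b belong to starts inside the gene bounds given above, not at the outer ends of these genes.
Nlrp5: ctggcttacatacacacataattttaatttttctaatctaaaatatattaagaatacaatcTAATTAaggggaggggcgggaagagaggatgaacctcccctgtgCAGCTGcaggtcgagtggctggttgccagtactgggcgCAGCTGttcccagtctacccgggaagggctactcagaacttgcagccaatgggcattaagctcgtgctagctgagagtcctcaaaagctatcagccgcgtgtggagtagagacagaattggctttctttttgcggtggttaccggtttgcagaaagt
Ooep: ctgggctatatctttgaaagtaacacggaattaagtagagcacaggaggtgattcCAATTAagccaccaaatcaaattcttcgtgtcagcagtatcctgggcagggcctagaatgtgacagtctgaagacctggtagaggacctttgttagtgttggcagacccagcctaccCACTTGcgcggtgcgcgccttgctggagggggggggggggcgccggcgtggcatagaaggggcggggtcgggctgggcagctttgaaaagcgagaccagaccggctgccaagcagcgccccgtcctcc
Khdc3: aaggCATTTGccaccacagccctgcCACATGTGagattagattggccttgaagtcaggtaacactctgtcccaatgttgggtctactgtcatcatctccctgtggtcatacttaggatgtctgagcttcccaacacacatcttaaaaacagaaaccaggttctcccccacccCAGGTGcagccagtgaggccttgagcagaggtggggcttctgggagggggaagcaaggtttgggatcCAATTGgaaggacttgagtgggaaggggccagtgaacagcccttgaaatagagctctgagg
Nlrp9b: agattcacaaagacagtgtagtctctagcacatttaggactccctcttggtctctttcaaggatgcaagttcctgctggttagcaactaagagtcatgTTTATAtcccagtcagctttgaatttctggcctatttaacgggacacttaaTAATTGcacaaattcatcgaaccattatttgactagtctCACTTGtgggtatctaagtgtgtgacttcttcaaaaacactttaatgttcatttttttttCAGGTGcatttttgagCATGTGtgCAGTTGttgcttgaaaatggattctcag

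The labelled stages were set against markers. The mean of 5 oocyte markers lay between -2.87 and -2.61 in cloned and between -2.84 and -2.64 in IVF blastocysts, against 5.56 to 5.66 in MII oocytes, and 6 blastocyst markers averaged 6.22 in cloned and 6.44 in IVF blastocysts against -1.08 in oocytes. Clone 4 of the 8-cell stage read -5.25 for the Y-linked gene Eif2s3y, next to -5.42 to -5.38 in oocytes and -2.7 to 1.23 in the other 8-cell clones, although its donor nucleus was male by label. Results at the 8-cell stage are therefore also given without it. The IVF 8-cell embryos read between -5.50 and 2.20 for Eif2s3y. Bacterial hybridisation controls, which measure the array and not the embryo, lay between -1.02 and -0.71 in 1-cell clones 1 to 3, between 0.35 and 0.50 in 1-cell clones 4 and 5, and between 0.53 and 0.79 in 1-cell IVF embryos. They lay between 0.57 and 1.22 in cloned and between -0.73 and -0.23 in IVF 2-cell embryos. At the 4-cell stage they lay between 0.69 and 1.19 in clones and between -0.51 and -0.13 in IVF embryos. At the 8-cell stage they lay between -0.03 and 0.96 in clones and between -0.44 and -0.24 in IVF embryos. The labels call the embryos of a group biological replicates and do not say whether they came from separate animals, so p-values measure the spread between these samples.

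Over the whole course 8 of the 9 genes fell and Khdc3 rose. Nlrp14, needed in the mouse for development past early cleavage, showed the largest difference of the 9 between IVF blastocysts and MII oocytes, with -9.78 ± 0.53 (log2 difference ± SE, adjusted p = 2.63e-10). It read -3.61, -3.64 and -4.68 in the IVF blastocysts, against 5.93, 5.65 and 5.83 in the oocytes, so the groups lay far apart. Nlrp4f, whose protein associates with the complex in the mouse, was lower by 592-fold (-9.21 ± 0.52, adjusted p = 3.98e-10), and Nlrp5, the scaffold of the complex, by 372-fold (-8.54 ± 0.43, adjusted p = 1.04e-10). For Nlrp5 the IVF blastocysts read -5.02, -3.96 and -4.36, against 4.46, 3.31 and 4.51 in the oocytes. The remaining falls were -8.00 ± 0.91 for Nlrp4e, -6.72 ± 0.55 for Tle6, -6.47 ± 0.35 for Padi6, -5.68 ± 0.69 for Nlrp9b and -2.92 ± 0.56 for Ooep, with adjusted p at or below 0.00031 in each. Khdc3 went the other way, with 3.45, 3.35 and 3.50 in IVF blastocysts against -4.31, -4.24 and -4.24 in oocytes, a rise of 7.69 ± 0.52 (adjusted p = 3.37e-09). The test was limma's with Benjamini-Hochberg adjustment over 18194 genes at a threshold of 0.05, and a gene past it is called. In this comparison 65% of all genes were called, 39.1% lower and 25.9% higher, so a call by itself was common and the sizes carry the description. The SD of the 9 genes over the 51 arrays ran from 2.69 to 4.30, at or above the 93.9th percentile of all genes. The call for Ooep was lost when the arrays were quantile normalised again (-1.61, adjusted p = 0.069).

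**Figure D1:**
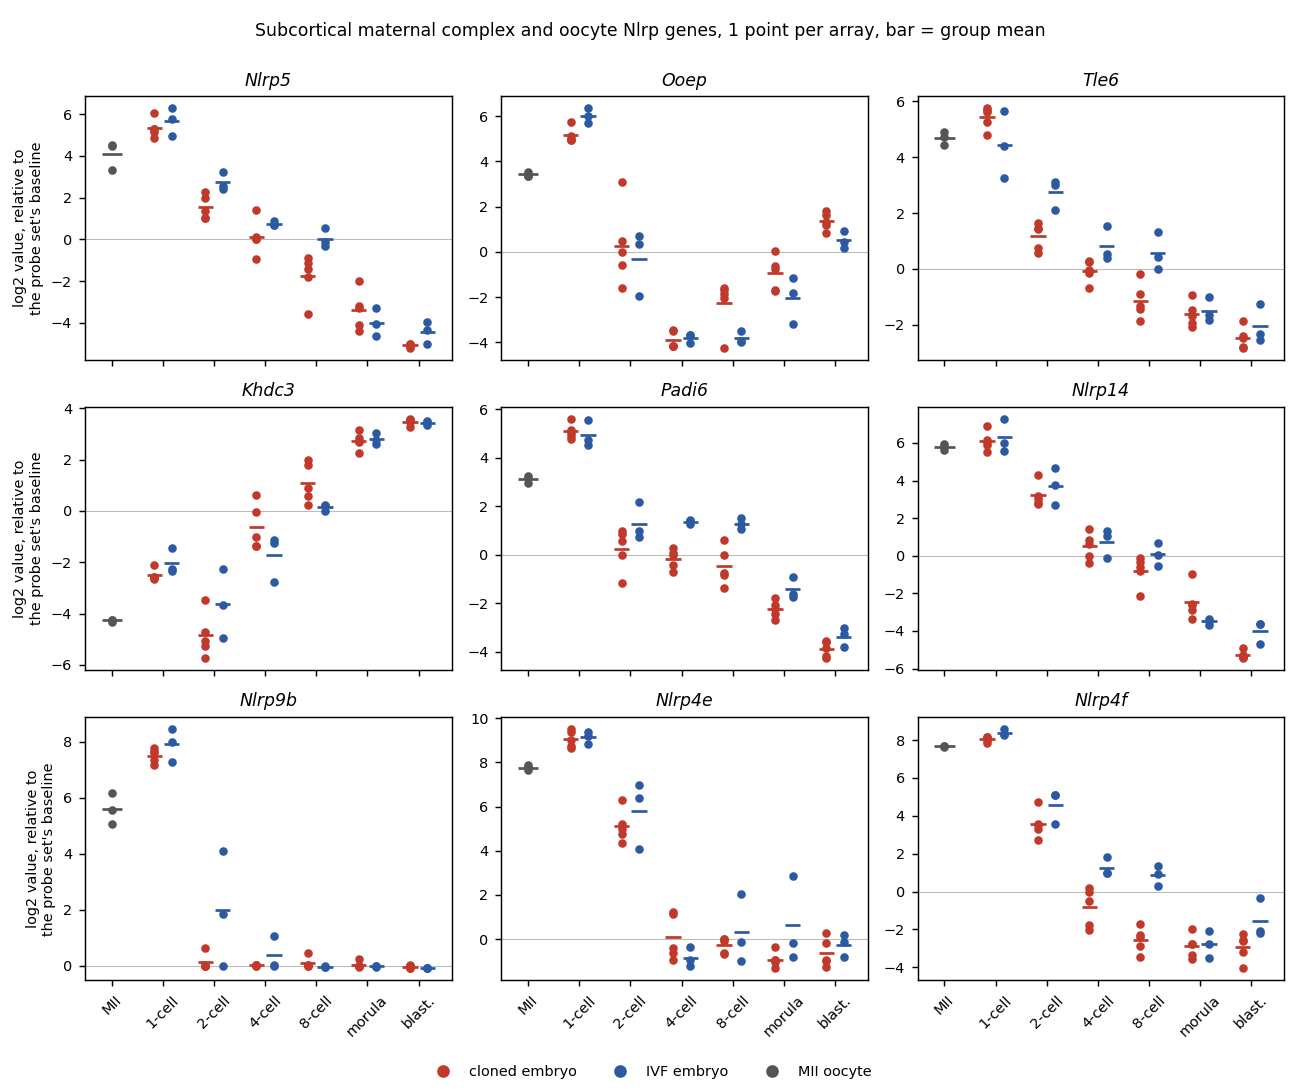
Log2 value of each gene, relative to the baseline of its own probe set (vertical axis), by stage from the MII oocyte to the blastocyst (horizontal axis), with 1 point for each array and a bar at the mean of clones (red, n = 5), IVF embryos (blue, n = 3) and oocytes (grey, n = 3). Most genes start high and end low, Khdc3 ends high, and Ooep reaches its lowest mean at the 4-cell stage and is higher again at the blastocyst stage.

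The fall was not steady, and it started after the 1-cell stage. In IVF 1-cell embryos 5 of the 9 genes were higher than in MII oocytes, where 30.6% of all genes were called and 14.3% were higher. Ooep read 6.35, 6.02 and 5.72 in IVF 1-cell embryos, against 3.38, 3.54 and 3.38 in oocytes (2.59 ± 0.56, adjusted p = 0.00188). Padi6, a member of the peptidylarginine deiminase family and a main component of the lattices of the egg, read 5.54, 4.72 and 4.51, against 3.23, 2.94 and 3.14 in oocytes (1.82 ± 0.35, adjusted p = 0.000635). In neither gene did the groups overlap. Nlrp9b (2.32 ± 0.69), Khdc3 (2.24 ± 0.52) and Nlrp5 (1.58 ± 0.43) were the other called genes. Nlrp4e (1.36 ± 0.91, adjusted p = 0.325), Nlrp4f (0.72), Nlrp14 (0.50) and Tle6 (-0.25) were not called. The hybridisation controls of these groups differed, with 0.53 to 0.79 in IVF 1-cell embryos and -0.80 to -0.47 in oocytes, and with the controls as a covariate 0 of the 5 calls remained. The differences were then 3.48 for Khdc3 (adjusted p = 0.106), 1.61 for Padi6 (0.31), 0.99 for Ooep (0.735), 0.92 for Nlrp5 (0.688) and 0.19 for Nlrp9b (0.959). The calls for Nlrp5 (adjusted p 0.0537 and 0.0559) and Nlrp9b (0.066 and 0.0672) were each lost in 2 fits, those without oocyte 2 and without IVF 1-cell embryo 1.

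Cloned 1-cell embryos showed the same direction against oocytes, with 7 of 9 genes higher where 25.7% of all genes were called and 10.8% were higher. Ooep read 5.13, 4.94, 5.73, 4.96 and 4.99 in cloned 1-cell embryos, all above the oocyte values given above (1.71 ± 0.19, adjusted p = 0.0013). Padi6 read between 4.78 and 5.60 (1.98 ± 0.19, adjusted p = 0.000666), and Khdc3 between -2.64 and -2.12, against -4.31 to -4.24 in oocytes (1.76 ± 0.12, adjusted p = 0.00022). Nlrp9b (1.92 ± 0.27), Nlrp4e (1.29 ± 0.22) and Nlrp4f (0.38 ± 0.07) were higher too, and Nlrp5 stood at the threshold (1.24 ± 0.37, adjusted p = 0.0498), a call lost when any of the 8 arrays was left out (adjusted p 0.0579 to 0.115). In the fit of all 51 arrays the calls for Nlrp4e (1.29, adjusted p = 0.139) and Nlrp4f (0.38, adjusted p = 0.789) were lost too, and with the replicate block that for Ooep (1.83, adjusted p = 0.0655). Tle6 (0.74, adjusted p = 0.0678) and Nlrp14 (0.30, adjusted p = 0.467) were not called. Clones 1 to 3 had hybridisation controls close to those of the oocytes. In a fit of these clones alone the call for Nlrp5 was lost (adjusted p = 0.149). The other 8 genes kept their side of the threshold. The share of all genes called in that fit is not given here. The comparisons of cloned and of IVF 1-cell embryos with oocytes share the 3 oocytes.

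The step to the 2-cell stage lowered all 9 genes in both kinds of embryo. In clones 41.2% of all genes were called at this step and 24.6% were lower. Nlrp9b showed the largest difference, with 0.00, 0.01, 0.64, -0.03 and 0.00 in cloned 2-cell embryos, against 7.78, 7.19, 7.35, 7.63 and 7.63 in cloned 1-cell embryos (-7.39 ± 0.11, adjusted p = 5.99e-26). Its 2-cell values overlapped those of every later stage in clones, which lay between -0.10 and 0.45. The fit pools the spread of all clone stages. The SD of Nlrp9b was 0.24 and 0.29 at the 1-cell and 2-cell stages, and 0.02 to 0.20 later. The SE and p therefore rest partly on the flat later stages. Ooep read -0.56, 0.47, 3.11, 0.00 and -1.61 in cloned 2-cell embryos, a wide spread, against 4.94 to 5.73 in cloned 1-cell embryos (-4.87 ± 0.58, adjusted p = 8.33e-08). Padi6 (-4.84 ± 0.34), Nlrp4f (-4.47 ± 0.43), Tle6 (-4.25 ± 0.29), Nlrp4e (-3.94 ± 0.39), Nlrp5 (-3.80 ± 0.46), Nlrp14 (-2.89 ± 0.41) and Khdc3 (-2.35 ± 0.38) fell as well. The call for Nlrp14 was lost when the arrays were quantile normalised again (-0.88, adjusted p = 0.202).

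In IVF embryos the same step called 35.9% of all genes, 18.7% lower. Ooep read 0.33, 0.72 and -1.94 in IVF 2-cell embryos, against 6.35, 6.02 and 5.72 in IVF 1-cell embryos, a fall of 80.3-fold (-6.33 ± 0.56, adjusted p = 1.82e-07). Nlrp9b read 1.85, 4.10 and 0.00, against 8.46, 8.00 and 7.29 (-5.93 ± 0.69, adjusted p = 3.43e-06), so the 3 IVF embryos were spread over 4.10 log2 units where 4 of the 5 clones lay together near 0. The other falls were -3.81 ± 0.52 for Nlrp4f, -3.64 ± 0.35 for Padi6, -3.31 ± 0.91 for Nlrp4e, -2.94 ± 0.43 for Nlrp5, -2.58 ± 0.53 for Nlrp14, -1.70 ± 0.55 for Tle6 and -1.61 ± 0.52 for Khdc3. Leaving out 1 array lost the call for Tle6 in 3 fits (to -1.08, adjusted p = 0.134, without IVF 1-cell embryo 1, -1.38, adjusted p = 0.105, without IVF 2-cell embryo 3 and -1.71, adjusted p = 0.0508, without IVF 1-cell embryo 2). It lost that for Khdc3 in 3 fits (-0.95, adjusted p = 0.137, without IVF 2-cell embryo 2, -1.33, adjusted p = 0.0966, without IVF 1-cell embryo 1 and -1.59, adjusted p = 0.0553, without IVF 2-cell embryo 1) and that for Nlrp4e in 1 (-2.45, adjusted p = 0.0549, without IVF 2-cell embryo 3). Only 4 of the 9 remained past the threshold after a second quantile normalization, where Nlrp5 gave -1.10, Tle6 -0.23, Nlrp14 -0.58, Nlrp4e -0.97 and Nlrp4f -1.53. With the hybridisation controls as a covariate Ooep (-4.98), Padi6 (-3.46) and Nlrp4f (-3.70) remained. The differences of the others were then -4.14 for Nlrp9b (adjusted p = 0.064), -2.65 for Khdc3 (0.138), -2.39 for Nlrp5 (0.109), -2.37 for Tle6 (0.241), -1.33 for Nlrp14 (0.57) and -0.66 for Nlrp4e (0.921).

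From the 2-cell to the 4-cell stage the genes parted into groups. Ooep, Nlrp5, Tle6, Nlrp14, Nlrp4e and Nlrp4f fell further in clones and in IVF embryos, Khdc3 rose in both, and Padi6 and Nlrp9b were called in neither. In clones 29.9% of all genes were called, 14.7% lower and 15.1% higher, and in IVF embryos 23.8%, 13.3% lower and 10.5% higher. Nlrp4e, which is needed for mouse preimplantation development by knockdown studies, read -0.63, -0.39, -0.93, 1.15 and 1.23 in cloned 4-cell embryos, against 4.36, 5.00, 4.75, 6.29 and 5.22 in cloned 2-cell embryos (-5.04 ± 0.39, adjusted p = 1.59e-10). In IVF embryos it read -0.36, -1.22 and -0.93 at the 4-cell stage, against 6.38, 6.97 and 4.09 at the 2-cell stage (-6.65 ± 0.91, adjusted p = 6.95e-05). At this step the 4-cell and 2-cell values of Nlrp4e did not overlap in either kind of embryo. Nlrp4f (-4.40 ± 0.43 in clones, -3.32 ± 0.52 in IVF embryos) and Ooep (-4.16 ± 0.58 in clones, -3.50 ± 0.56 in IVF embryos) fell too. Nlrp14 (-2.72 in clones, -2.96 in IVF embryos), Nlrp5 (-1.41, adjusted p = 0.0209, in clones, -1.99 in IVF embryos) and Tle6 (-1.24 in clones, -1.92 in IVF embryos) fell less far. Leaving out 1 array lost the call for Tle6 in 4 and for Khdc3 in 3 of the IVF fits, and for Nlrp5 in 3 of the clone fits.

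The means of Padi6 in IVF embryos lay close together from the 2-cell to the 8-cell stage. They were 1.29 ± 0.77, 1.37 ± 0.11 and 1.28 ± 0.22 (SD, n = 3) at the 2-cell, 4-cell and 8-cell stages, and neither step was called (0.08 ± 0.35 and -0.08 ± 0.35). In clones its means at these stages were 0.24 ± 0.87, -0.16 ± 0.39 and -0.48 ± 0.77 (SD, n = 5), again with no step called.

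Between the 4-cell and 8-cell stages few genes moved. In IVF embryos limma called 0 of the 9 genes and 1.98% of all genes. Khdc3 alone had an unadjusted p under 0.05 there (1.86 ± 0.52, adjusted p = 0.0875), and it was called in the fit of all 51 arrays (adjusted p = 0.0437). In clones 6.5% of all genes were called, 4.17% lower and 2.33% higher. Nlrp5 (-1.88 ± 0.46, adjusted p = 0.0109), Nlrp4f (-1.74 ± 0.43, adjusted p = 0.013) and Tle6 (-1.07 ± 0.29, adjusted p = 0.0223) fell in clones and Khdc3 rose (1.72 ± 0.38, adjusted p = 0.00507). The call for Tle6 was lost in 5 of the fits that left out 1 clone, and that for Nlrp4f with array weights (-1.72, adjusted p = 0.0558). Without clone 4 of the 8-cell stage all 4 genes were called. The difference between the clone step and the IVF step was called for 0 of the 9 genes by limma, with 0 at an unadjusted p under 0.05, and for 1.31% of all genes.

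At the morula stage a further fall followed, and it was larger in IVF embryos for Nlrp5 and Nlrp4f. In IVF embryos 17.2% of all genes were called between the 8-cell stage and the morula, 10.1% lower and 7.09% higher. Nlrp5 read -4.06, -4.65 and -3.31 in IVF morulae, against -0.31, -0.13 and 0.53 in IVF 8-cell embryos (-4.04 ± 0.43, adjusted p = 9.37e-06). Nlrp4f (-3.66 ± 0.52), Nlrp14 (-3.58 ± 0.53), Padi6 (-2.70 ± 0.35) and Tle6 (-2.08 ± 0.55) fell, and Khdc3 (2.66 ± 0.52) and Ooep (1.74 ± 0.56, adjusted p = 0.0441) rose. The call for Ooep was lost with the hybridisation controls as a covariate (1.19, adjusted p = 0.381), in the fit of all 51 arrays (adjusted p = 0.0844), with the replicate block (adjusted p = 0.0661) and in 5 fits without 1 array, and that for Tle6 with the controls (-1.80, adjusted p = 0.138) and in 2 fits without 1 array. In clones 17.4% of all genes were called, 7.61% lower and 9.81% higher. Padi6 (-1.76 ± 0.34), Nlrp14 (-1.67 ± 0.41) and Nlrp5 (-1.63 ± 0.46) fell there, Khdc3 rose (1.63 ± 0.38), and Nlrp4f was not called (-0.33 ± 0.43). Without clone 4 of the 8-cell stage these 4 clone calls remained, with Nlrp5 nearest the threshold (-1.41, adjusted p = 0.0455).

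The last step, to the blastocyst, called 34.5% of all genes in clones, 17.6% lower and 16.9% higher, and 22.6% in IVF embryos, 10.1% lower and 12.6% higher. Nlrp14 read -5.29, -5.44, -5.36, -4.89 and -5.40 in cloned blastocysts, against -2.86, -2.58, -0.95, -2.62 and -3.36 in cloned morulae (-2.80 ± 0.41, adjusted p = 9.2e-06). Nlrp5 (-1.69 ± 0.46), Padi6 (-1.64 ± 0.34) and Tle6 (-0.84 ± 0.29, adjusted p = 0.0258) fell in clones and Padi6 in IVF embryos (-1.95 ± 0.35, adjusted p = 0.000825). Nlrp5 ended in cloned blastocysts within a narrow range, -5.19 to -5.03, against -5.02 to -3.96 in IVF blastocysts. Ooep rose in both, by 2.30 ± 0.58 in clones (adjusted p = 0.00372) and by 2.56 ± 0.56 in IVF embryos (adjusted p = 0.00402). The hybridisation controls were lower in blastocysts, -1.25 to -1.07 in cloned and -1.25 to -0.70 in IVF blastocysts, than in morulae, -0.10 to 0.98 in cloned and -0.04 to 0.23 in IVF morulae. With the controls as a covariate 1 of the clone calls, that of Nlrp14, and 0 of the IVF calls remained. The clone differences were then -1.78 for Nlrp5 (adjusted p = 0.167), -1.65 for Padi6 (0.0739), 1.39 for Ooep (0.446) and -0.75 for Tle6 (0.412), and the IVF differences 3.80 for Ooep (0.0605) and -1.78 for Padi6 (0.205).

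**Figure D2:**
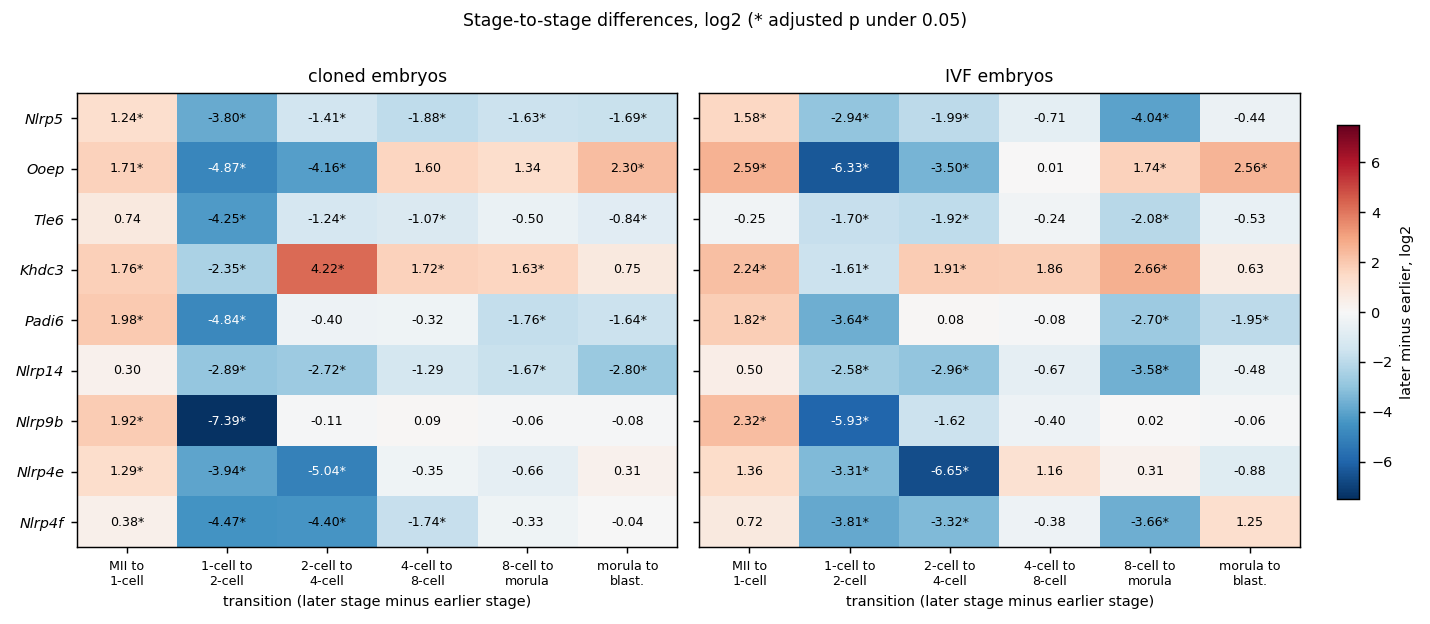
Log2 difference between neighbouring stages, later minus earlier, as colour and as the number in each cell, for each gene (rows) and step (columns), in clones on the left (5 embryos a stage) and IVF embryos on the right (3 a stage), with an asterisk where limma's adjusted p was under 0.05. All 9 genes are below 0 at the step to the 2-cell stage, and Khdc3 is above 0 at each later step.

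Ooep and Khdc3 stood apart from the other 7. The 7 others had correlations of 0.81 to 0.99 with each other over the 13 group means (21 pairs), Ooep had 0.50 to 0.86 with them, and Khdc3 had -0.90 to -0.30 with the 8 others. These points share arrays and the loss of oocyte RNA, so the values describe the profiles. Ooep, a KH domain protein needed to assemble the complex in the mouse, averaged 3.44 ± 0.09 in oocytes and then in IVF embryos 6.03 ± 0.32, -0.30 ± 1.44, -3.80 ± 0.21, -3.79 ± 0.27, -2.04 ± 1.02 and 0.52 ± 0.39 (SD, n = 3) from the 1-cell stage to the blastocyst. In clones the same stages gave 5.15 ± 0.33, 0.28 ± 1.76, -3.88 ± 0.37, -2.28 ± 1.11, -0.94 ± 0.76 and 1.36 ± 0.38 (SD, n = 5). The 4-cell and 8-cell means of IVF embryos did not differ beyond their spread.

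Khdc3, also a KH domain protein and known too as the embryonic stem cell transcript Ecat1, read low in oocytes and lowest of all groups in 2-cell clones. Its IVF means were -2.02 ± 0.48, -3.63 ± 1.36, -1.72 ± 0.92, 0.14 ± 0.12, 2.80 ± 0.23 and 3.43 ± 0.08 from the 1-cell stage to the blastocyst, and its clone means -2.50 ± 0.22, -4.85 ± 0.86, -0.63 ± 0.88, 1.10 ± 0.76, 2.73 ± 0.31 and 3.47 ± 0.13. The 5 cloned blastocysts read 3.59, 3.47, 3.54, 3.51 and 3.25, against 3.45, 3.35 and 3.50 in the IVF blastocysts, so the groups overlapped at the end (0.04 ± 0.08, not called). This course is not that of a transcript high in the oocyte and lost afterwards, so for Khdc3 the data go against the maternal course that the set's name describes. Whether it reports other transcripts was not tested.

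The Nlrp genes differed in the steps at which their means fell, and this order was not tested. Nlrp9b averaged 5.60 ± 0.57 in oocytes, 7.52 ± 0.24 in cloned and 7.92 ± 0.59 in IVF 1-cell embryos, and then 0.12 ± 0.29 in cloned and 1.98 ± 2.05 in IVF 2-cell embryos. Nlrp4e reached its later level at the 4-cell stage, with 0.09 ± 1.03 in cloned and -0.84 ± 0.44 in IVF embryos, and its later steps were not called. Nlrp14 was still called lower at the step to the morula in both kinds of embryo and at the step to the blastocyst in clones. Nlrp4f fell at the steps to the 2-cell and 4-cell stages in both kinds of embryo. It fell further at the 8-cell stage in clones and at the morula in IVF embryos. Its change from the 4-cell to the 8-cell stage was not called different between clones and IVF embryos by limma (-1.35, adjusted p = 0.471). Values of Nlrp9b after the 4-cell stage lay between -0.10 and 0.45, a flat run, and whether transcript was still present there was not judged, since detection calls were not used. Nlrp4e, Nlrp4f and Nlrp9b have close paralogues, and cross-hybridisation between their probe sets was not tested.

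Clones were next set against IVF embryos of the same stage. The members called, each lower in clones, were Padi6 at the 4-cell stage, Nlrp4f at the 8-cell stage and Nlrp14 at the blastocyst stage. At the 1-cell, 2-cell and morula stages limma called 0 of the 9 genes, against 6.31%, 2.37% and 0.165% of all genes. The number of members at an unadjusted p under 0.05 was 2 at the 1-cell stage, 2 at the 2-cell stage and 1 at the morula stage, where 18.2%, 14.9% and 10% of all genes were. From the 1-cell stage to the blastocyst the median difference of the 9 genes was -0.34, -1.05, -0.36, -0.88, -0.07 and -0.44, where the median over all genes lay between -0.01 and 0.04.

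At the 8-cell stage Nlrp4f was 10.8-fold lower in clones. It read -3.48, -2.42, -2.85, -1.73 and -2.32 in cloned 8-cell embryos, against 0.30, 0.94 and 1.37 in IVF 8-cell embryos (-3.43 ± 0.43, adjusted p = 0.0103). Every clone lay below every IVF embryo. At this stage 6.62% of all genes were called and 4.47% were lower in clones. Leaving out any 1 of the 8 arrays kept the call (adjusted p 0.012 to 0.0394), and without clone 4 the difference was -3.64 (adjusted p = 0.012). With the replicate block it was -3.79 and not called (adjusted p = 0.0929). The hybridisation controls did not overlap between clones and IVF embryos at this stage. A stage earlier Nlrp4f read 0.00, -1.75, -2.04, -0.48 and 0.17 in clones, against 0.96, 0.98 and 1.84 in IVF embryos, again without overlap but not called (-2.08 ± 0.60, adjusted p = 0.169), and called in the fit of all 51 arrays (adjusted p = 0.00457). At the morula stage the means were -2.89 ± 0.62 in clones (SD, n = 5) and -2.79 ± 0.73 in IVF embryos (SD, n = 3).

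Padi6, Tle6 and Nlrp5 were lower in 8-cell clones by similar sizes that missed the threshold. Padi6 read between -1.38 and 0.59 in clones, against 1.51, 1.07 and 1.27 in IVF embryos (-1.76 ± 0.45, adjusted p = 0.0653). Tle6, a homologue of the Groucho co-repressors, read -1.85, -1.43, -1.32, -0.18 and -0.89 in clones, against 1.31, 0.43 and 0.00 in IVF embryos (-1.71 ± 0.45, adjusted p = 0.07). Nlrp5 read -1.40, -1.14, -3.59, -0.87 and -1.79 in clones, against -0.31, -0.13 and 0.53 in IVF embryos (-1.79 ± 0.64, adjusted p = 0.131). In each of these genes the groups did not overlap, and neither did they in Nlrp9b, which had the opposite sign (0.14). The share of all genes without overlap was not counted. By limma 28.6% of all genes had an unadjusted p under 0.05 at this stage. Without clone 4, whose Eif2s3y value went against its label, 3 genes were called: Nlrp4f, Padi6 (-2.03, adjusted p = 0.0347) and Tle6 (-1.95, adjusted p = 0.0494). The fit of all 51 arrays also called Nlrp5 (adjusted p = 0.00665), Tle6 and Padi6.

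Ooep and Khdc3 had the opposite sign at this stage. Ooep read -2.05, -1.68, -1.59, -1.84 and -4.23 in 8-cell clones, against -3.92, -3.48 and -3.96 in IVF embryos, so 4 of 5 clones lay above all IVF embryos and clone 5 below them (1.51 ± 0.63, adjusted p = 0.176). Without clone 5 the difference was 1.99 (adjusted p = 0.00866). Khdc3 read 0.90, 1.77, 2.00, 0.60 and 0.22 in clones, against 0.22, 0.20 and 0.00 in IVF embryos (0.95 ± 0.43, adjusted p = 0.201). Nlrp14 and Nlrp4e were not called, and Nlrp9b was near 0 in both.

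Other oocyte transcripts moved with this stage. The mean of the 5 oocyte markers, Zp1, Zp2, Zp3, Gdf9 and Bmp15, was -1.16 in 8-cell clones (arrays -1.43 to -0.63), against 0.61 in IVF 8-cell embryos (0.51 to 0.76). It was -0.02 in cloned 4-cell embryos (-0.59 to 0.63), against 0.98 in IVF 4-cell embryos (0.63 to 1.25). In a list of 22 measured maternal oocyte genes, which holds these 5 and no member, 8 were lower and 0 higher in 8-cell clones with a median of -1.15 (7 lower without clone 4, median -1.24), where 4.47% of all genes were lower. Among the 8 were the zona pellucida gene Zp3 (-2.75, adjusted p = 0.00897), the oocyte growth factor Bmp15 (-0.88, adjusted p = 0.0222), Omt2a (-4.81, adjusted p = 0.00168) and Omt2b (-4.54, adjusted p = 0.0131). Of that list 3 were lower in 4-cell clones, where 1.8% of all genes were, and 0 of 22 were called at the morula and 0 at the blastocyst stage, with medians of 0.03 and -0.01. The 5 markers of the 2-cell embryo averaged -0.29 in 8-cell clones (-1.09 to 0.70), against 3.86 in IVF 8-cell embryos (2.07 to 4.85). The 10 Sertoli cell markers averaged 0.69 in 8-cell clones (0.32 to 1.07), against 0.45 in IVF 8-cell embryos (0.08 to 0.76). The 6 blastocyst markers averaged -0.61 in 8-cell clones (-1.36 to 0.02), against 0.37 in IVF 8-cell embryos (0.29 to 0.45), without overlap. The part of these shifts in the differences of the members was not tested.

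**Figure D3:**
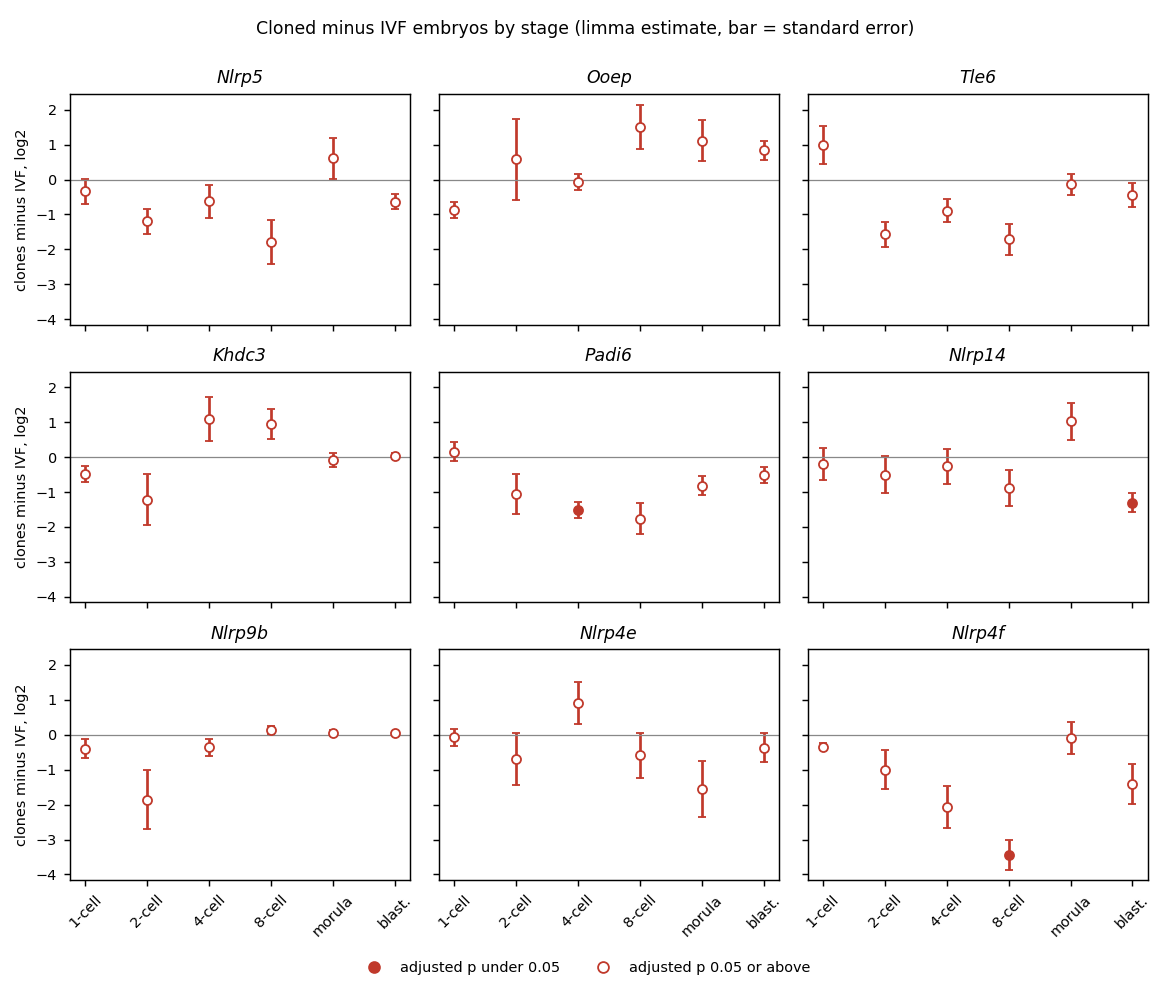
Log2 difference of each gene, clones minus IVF embryos (vertical axis), at each stage (horizontal axis), with bars of 1 standard error from limma, over 5 clones and 3 IVF embryos at each stage. Filled points passed the threshold: Padi6 at the 4-cell stage, Nlrp4f at the 8-cell stage and Nlrp14 at the blastocyst stage, all below 0.

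Padi6 was 2.87-fold lower in 4-cell clones. It read -0.02, -0.69, -0.42, 0.07 and 0.28 in clones, against 1.44, 1.25 and 1.41 in IVF embryos, with no overlap (-1.52 ± 0.23, adjusted p = 0.0247). At this stage 2.26% of all genes were called and 1.8% were lower in clones. The call was lost in 5 of the 8 fits without 1 array (adjusted p 0.0539 to 0.0855), with the replicate block (-1.74, adjusted p = 0.182) and with the hybridisation controls as a covariate (-2.65, adjusted p = 0.607), which did not overlap between the groups here. The lower value in clones was also measured at the other stages from the 2-cell stage on, with -0.82 ± 0.27 at the morula stage (adjusted p = 0.34), none of them called.

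In blastocysts Nlrp14 was 2.46-fold lower in clones. The means of Nlrp14 there, -5.28 in clones and -3.98 in IVF embryos, were the lowest of each series, and signal over background was not judged. The 5 clones read -5.29, -5.44, -5.36, -4.89 and -5.40, against -3.61, -3.64 and -4.68 in IVF blastocysts, with no overlap (-1.30 ± 0.27, adjusted p = 0.0417). Here 6.18% of all genes were called and 3.34% were lower in clones. The call was lost in 7 of the 8 fits without 1 array (adjusted p 0.0574 to 0.126), after a second quantile normalization (-1.29, adjusted p = 0.06), with the controls as a covariate (-0.85, adjusted p = 0.0669), with array weights (-1.10, adjusted p = 0.0736), in the fit of all 51 arrays (adjusted p = 0.184) and with the replicate block (-1.38, adjusted p = 0.224). Nlrp5 read -5.04, -5.03, -5.10, -5.19 and -5.05 in cloned blastocysts, against -5.02, -3.96 and -4.36 in IVF blastocysts, and was not called (-0.63 ± 0.22, adjusted p = 0.16). Without IVF blastocyst 1 it was called (-0.92, adjusted p = 0.02). The oocyte markers averaged -2.74 in cloned and -2.73 in IVF blastocysts, and the 10 Sertoli cell markers averaged 1.26 in cloned (0.89 to 1.46) and 0.17 in IVF blastocysts (0.04 to 0.39), a shift whose part in these differences was not tested. Nlrp4f read between -4.06 and -2.23 in clones, against -2.18, -2.08 and -0.34 in IVF embryos (-1.40 ± 0.57, adjusted p = 0.245). Ooep read 1.31, 1.21, 0.83, 1.81 and 1.63 in clones, against 0.17, 0.45 and 0.94 in IVF embryos (0.84 ± 0.27, adjusted p = 0.134).

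At the 1-cell and 2-cell stages 0 of the 9 genes passed the threshold. In 1-cell clones Tle6 read 5.68, 4.81, 5.75, 5.26 and 5.61, against 5.66, 4.41 and 3.24 in IVF embryos (0.99 ± 0.54, adjusted p = 0.45), with overlap, the largest difference of the 9 at this stage. Ooep had the smallest adjusted p there, and its clones read 4.94 to 5.73, against 5.72 to 6.35 in IVF embryos (-0.88 ± 0.23, adjusted p = 0.0812), and without clone 3 it was called (-1.03, adjusted p = 0.0245). Clones 4 and 5, whose hybridisation controls were nearest to those of the IVF embryos, gave 0 calls for the 9 genes on their own. The share of all genes called in that fit is not given here. With so few clones the count cannot tell equal values from a difference too small to call. In 2-cell clones Tle6 read 0.56, 1.44, 1.46, 1.64 and 0.76, against 3.10, 3.02 and 2.10 in IVF embryos (-1.57 ± 0.35, adjusted p = 0.0832), without overlap. Nlrp5 read 1.03, 1.03, 1.34, 2.28 and 1.97, against 3.23, 2.55 and 2.40, also without overlap (-1.20 ± 0.37, adjusted p = 0.18). In the fit of all 51 arrays Tle6 (adjusted p = 0.0068) and Nlrp9b (-1.86, adjusted p = 0.000999) were called at the 2-cell stage.

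Whether the steps themselves differed between clones and IVF embryos was tested as an interaction in all 51 arrays. At the step from the 1-cell to the 2-cell stage Tle6 fell further in clones, by -4.25 in clones against -1.70 in IVF embryos, a difference of -2.56 ± 0.57 (adjusted p = 0.00154) where 11.2% of all genes were called and 7.24% had a lower change in clones. The call was lost after a second quantile normalization (-2.07, adjusted p = 0.0624) and with the controls as a covariate (-2.50, adjusted p = 0.0839). From the 2-cell to the 4-cell stage Khdc3 rose more in clones, by 4.22 in clones against 1.91 in IVF embryos (2.31 ± 0.64, adjusted p = 0.0383), where 2.64% of all genes were called and 1.45% had a higher change. That call was lost in 8 of the 16 fits without 1 array (adjusted p 0.0549 to 0.192), with array weights (2.17, adjusted p = 0.0533), after a second quantile normalization (2.79, adjusted p = 0.052) and with the replicate block (2.31, adjusted p = 0.0526).

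From the 8-cell stage to the morula the changes of Nlrp4f and Nlrp5 were smaller in clones than in IVF embryos. Nlrp4f changed by -0.33, not called, in clones against -3.66 in IVF embryos, a difference of 3.33 ± 0.69 (adjusted p = 0.00209), and Nlrp5 by -1.63 in clones against -4.04 in IVF embryos, a difference of 2.40 ± 0.68 (adjusted p = 0.0283). Of all genes 5.66% were called and 4.28% had a higher change in clones. The call for Nlrp5 was lost in 5 of the fits without 1 array (adjusted p 0.0553 to 0.0964). Without clone 4 of the 8-cell stage the differences were 3.54 for Nlrp4f (adjusted p = 0.00113), 2.63 for Nlrp5 (adjusted p = 0.0147) and 1.82 for Tle6 (adjusted p = 0.0434), all called. Tle6 (1.58 ± 0.57, adjusted p = 0.0959) and Nlrp14 (1.91 ± 0.68, adjusted p = 0.0932) had the same sign and were called after a second quantile normalization. In the list of maternal oocyte genes 8 of 22 were called at this step with a higher change in clones, and 0 with a lower one, also without clone 4. At the step to the blastocyst limma called 0 of the 9 genes, with 1 at an unadjusted p under 0.05, Nlrp14 (-2.32, adjusted p = 0.0753), against 1.62% of all genes called and 9.81% at an unadjusted p under 0.05.

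Genes that work with the members or descend from the same ancestors were followed beside them. In a list of partners and paralogues 23 genes were measured. Between IVF blastocysts and oocytes 11 of the 23 were lower and 4 higher, with a median of -0.14, where 39.1% of all genes were lower and 25.9% higher with a median of -0.08. Zbed3, a component of the mouse complex, averaged -3.58 ± 0.65 in IVF blastocysts, against 7.39 ± 0.14 in oocytes (-10.97 ± 0.52, adjusted p = 5.82e-11). The oocyte paralogues Nlrp4b (-11.21 ± 0.56) and Nlrp9c (-9.66 ± 0.21) and the KH domain gene Khdc1b (-9.72 ± 0.43) fell by similar sizes. The paralogue Nlrp4c did not, with a mean of 2.12 ± 0.12 in IVF blastocysts, above its 1.02 ± 0.19 in oocytes (SD, n = 3). Zbed3 was still at 6.75 ± 0.33 in cloned and 5.62 ± 1.27 in IVF 2-cell embryos, and fell at the step to the 4-cell stage by 5.84 ± 0.47 in clones and 4.94 ± 0.52 in IVF embryos. Dppa5a, a KH domain gene of pluripotent cells, averaged 2.48 ± 0.10 in cloned and 2.46 ± 0.06 in IVF blastocysts, against -5.05 ± 0.73 in oocytes, the direction of Khdc3.

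Between clones and IVF embryos the called genes of this list were Tle5 at the 1-cell stage (-1.29 ± 0.28, adjusted p = 0.0483), Nlrp9c at the 2-cell stage (-0.70 ± 0.12, adjusted p = 0.0416), and Nlrp9c and Khdc1b at the 8-cell stage, all lower in clones. That was 1 of 23 at the 1-cell, 1 at the 2-cell and 2 at the 8-cell stage, where 6.31%, 2.37% and 6.62% of all genes were called. At the 4-cell, morula and blastocyst stages 0 of the 23 were called, against 2.26%, 0.165% and 6.18% of all genes. In 8-cell embryos Nlrp9c averaged -3.20 ± 0.82 in clones (SD, n = 5), against 1.35 ± 0.34 in IVF embryos (SD, n = 3), a difference of -4.55 ± 0.48 (adjusted p = 0.0064). Khdc1b averaged -2.58 ± 0.65 in clones, against 0.08 ± 0.10 in IVF embryos (-2.66 ± 0.37, adjusted p = 0.015). Without clone 4 both were called (-4.43, adjusted p = 0.0159, for Nlrp9c and -2.70, adjusted p = 0.0307, for Khdc1b). At the next step their changes, clones minus IVF embryos, differed by 4.75 ± 0.52 for Nlrp9c (adjusted p = 5.12e-08) and 5.40 ± 0.53 for Khdc1b (adjusted p = 4.69e-09). Uhrf1, a DNA methylation factor whose protein NLRP14 binds in the mouse oocyte, fell at the step to the 2-cell stage in IVF embryos (-4.08 ± 0.41, adjusted p = 6.66e-07), and rose at the morula by 3.61 ± 0.45 in clones and 1.89 ± 0.41 in IVF embryos.

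**Figure D4:**
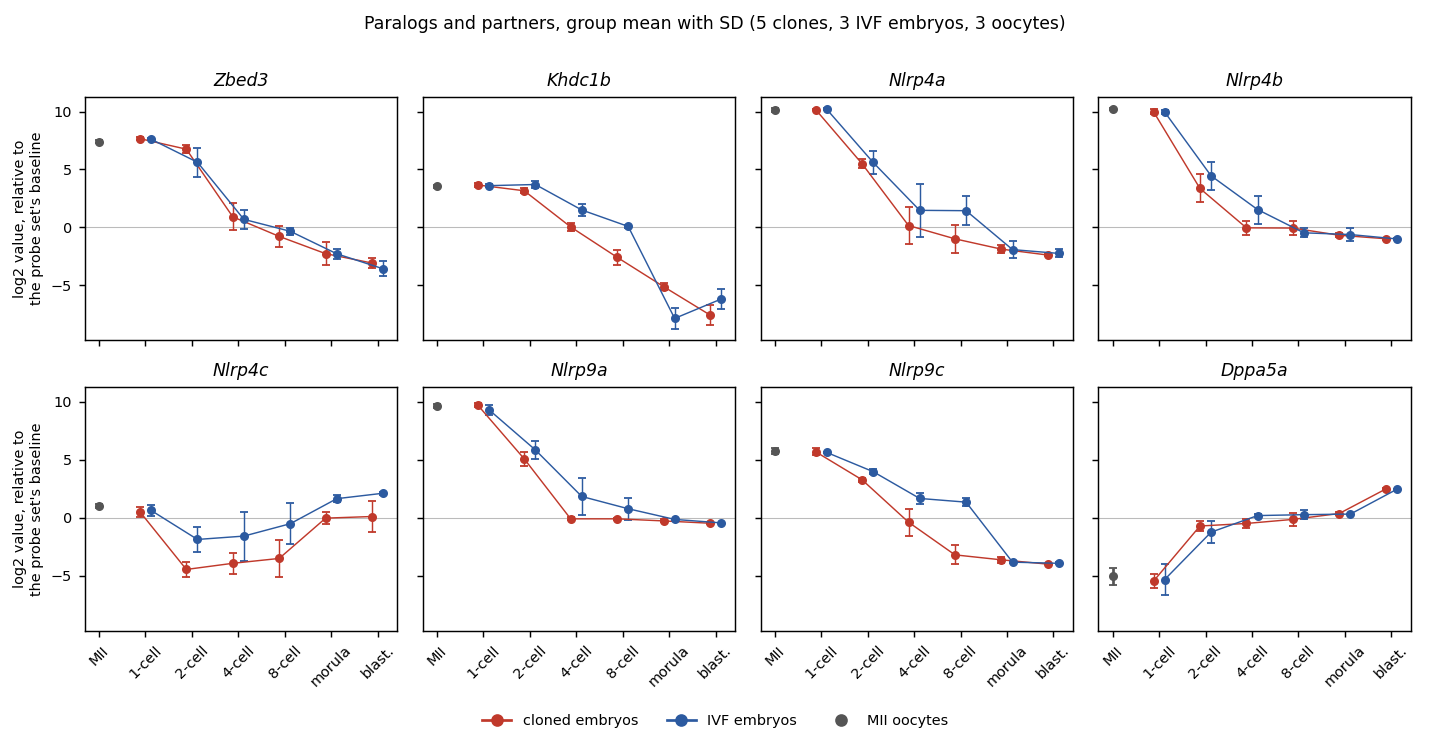
Log2 value relative to the baseline of each probe set (vertical axis) by stage (horizontal axis) for Zbed3, Khdc1b, Dppa5a and Nlrp paralogues, with points at the group means, bars of 1 SD and lines between stages, for clones (red, n = 5), IVF embryos (blue, n = 3) and oocytes (grey, n = 3). Nlrp9c and Khdc1b lie lower in clones than in IVF embryos at the 8-cell stage, and Dppa5a ends above its oocyte level.

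The Nlr genes of innate immunity were set beside the oocyte genes. Of 18 listed genes of the immune Nlr and inflammasome group 13 were measured, and 0 were called between clones and IVF embryos at any of the 6 stages by limma, where 0.165% to 6.62% of all genes were. Between IVF blastocysts and oocytes 2 were higher, the inflammasome adaptor Pycard (7.14 ± 0.59, adjusted p = 3.21e-08) and the mitochondrial Nlrx1 (4.5 ± 0.63, adjusted p = 1.28e-05), and 3 were lower, with a median of -0.09, where 65% of all genes were called. The difference in course between this list and the members was not tested.

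Genes were ranked by how closely their group means followed the members. But for those of Khdc3, the nearest were lower in IVF blastocysts than in IVF 1-cell embryos. That direction follows from how they were chosen and is not a separate result. Likeness was Pearson's r over the 13 group means and describes profiles that share arrays. Nearest to the averaged profile of the 5 complex and lattice genes were Tph2 (0.992), Cyfip2 (0.989), Ninj2 (0.989), Rhd (0.987) and Samd7 (0.985). That average includes Khdc3, which ran opposite to the other members, so it need not follow the course of any single member. Nearest to the averaged profile of the other Nlrp genes were Ccno (0.995), Fbxw21 (0.995), Cmpk2 (0.993), Rgs2 (0.992) and the paralogue Nlrp4a (0.991). For single genes, Ldhb was nearest to Nlrp5 (0.997) and to Nlrp14 (0.995), the zona pellucida gene Zp2 was among the 3 nearest to Nlrp5 (0.986), Mettl7a1 was nearest to Ooep (0.976), Stra6l to Nlrp9b (0.998) and Evl to Nlrp4f (0.992). Nearest to Khdc3 was the actin gene Actg1 (0.983), followed by Ndufa5 and Clpb (0.978 each).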

How the data were processed

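The deposited table holds log2 values made by the authors with RMA, per the submitters' processing notes, for 45101 probe sets of 51 Affymetrix arrays. The version of RMA is not given in the sources used here. Per the labels' protocols, RNA of single oocytes or embryos was purified and amplified over a pair of cRNA synthesis cycles. The values were found to be centred for each probe set: in 94.3% of them exactly 1 array was at 0. The log base is not stated and was taken as 2 because 1 probe set spans 13.8 units, more than the 11.1 that a 16-bit scanner spans in natural logarithms. Precision rests on the number of embryos, since an array has no read depth, and detection calls were not used.

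Of the probe sets 34945 had 1 gene symbol, 932 several, 9160 none and 64 were controls. A gene with several probe sets was read from that of largest SD, which gave 18194 genes. Differences were tested with limma 3.58.1 in R 4.3.3 (lmFit and eBayes, no filter), with Benjamini-Hochberg adjustment over 18194 genes and a threshold of 0.05. Clones were compared with IVF embryos in the 8 arrays of a stage, IVF steps in 21 arrays with the oocytes, clone steps in 30 arrays, cloned 1-cell embryos with oocytes in 8 arrays and differences of steps in all 51. The fits were tested on simulated data. All members are named, from each list up to 4 genes of smallest adjusted p, and the nearest profiles by rank, and further listed genes were chosen after their values were seen. The members and the gene lists were chosen with earlier results of these data known. Alternatives were median centring, a second quantile normalization, hybridisation controls as a covariate, robust eBayes, array weights, a filter on the 30% of genes lowest in SD, all 51 arrays in 1 fit, leaving out each array, leaving out an 8-cell clone whose Y-linked signal went against its label, and the replicate number as a block. The second quantile normalization was run on the centred values. It therefore made the deviations from baseline alike between arrays, and not the intensities. Its part in the smaller differences was not tested. Deviations of same-numbered clones and IVF embryos correlated between -0.204 and 0.102, so the numbers do not pair them.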

Additional observations from a re-analysis of the deposited data

Results flagged for a closer look

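Each of 54 tests took the clones of 1 stage for 1 gene, and in 8 of them 1 embryo stood apart from the other 4. For a single test chance gives about 1 in 20. The genes of a stage were read in the same embryos, so the tests were not independent. The count of 8 therefore cannot be set against that rate, and no excess over chance is claimed. Clone 3 of the 1-cell stage was high for Ooep (5.73, the others 4.94 to 5.13) and for Khdc3 (-2.12, the others -2.64 to -2.56). Clone 3 of the 2-cell stage was high for Nlrp14 (4.29, the others 2.78 to 3.17) and for Nlrp9b (0.64, the others -0.03 to 0.01). At the 8-cell stage clone 5 was low for Ooep (-4.23, the others -2.05 to -1.59) and clone 4 was high for Nlrp9b (0.45, the others -0.01 to 0.03). Clone 5 of the morula stage was high for Nlrp9b (0.25, the others at most 0.00), and clone 4 of the blastocyst stage was high for Nlrp14 (-4.89, the others -5.44 to -5.29). The 3 values of Nlrp9b stand out from embryos that lie within 0.05 of 0, so their distances are small.

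A step differed between clones and IVF embryos, by an interaction in limma with adjustment over all genes, for 4 pairs of gene and step. Of all genes 11.2%, 2.64%, 1.31%, 5.66% and 1.62% were called, in order from the first step to the step to the blastocyst. The differences, clones minus IVF embryos, were -2.56 for Tle6 from the 1-cell to the 2-cell stage (adjusted p = 0.00154), 2.31 for Khdc3 from the 2-cell to the 4-cell stage (adjusted p = 0.0383), and 2.40 for Nlrp5 (adjusted p = 0.0283) and 3.33 for Nlrp4f (adjusted p = 0.00209) from the 8-cell stage to the morula. The calls for Tle6, Khdc3 and Nlrp5 were each lost under some of the alternatives given above.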

How the results depend on the processing

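The fit of 5 clones and 3 IVF embryos limits what could be called, and centred values give no level, so signal over background was not judged. No called value changed its sign under any alternative run. The share of all genes called under each alternative is not given here. The counts below therefore cannot tell a change in the 9 genes from a change over all genes. For clones against IVF embryos, the count of the 9 genes called was 2 at the 2-cell stage in the fit of all 51 arrays, against 0. At the 4-cell stage (1 called) it was 0 with the hybridisation controls as a covariate, 2 in the fit of all arrays and 0 with the replicate block. At the 8-cell stage (1 called) it was 3 with array weights, 4 in the fit of all arrays and 0 with the replicate block. At the blastocyst stage (1 called) it was 0 under a second quantile normalization, the control covariate, array weights, the fit of all arrays and the replicate block. Leaving out 1 array gave 0 to 1 at the 1-cell, 4-cell and blastocyst stages and 1 to 3 at the 8-cell stage. For steps, IVF 1-cell embryos against oocytes (5 called) gave 3 under quantile normalization, 0 with the covariate and 3 to 5 without 1 array. IVF 2-cell against 1-cell embryos (9 called) gave 4 under quantile normalization and 3 with the covariate. IVF 8-cell against 4-cell embryos (0 called) gave 1 under quantile normalization, array weights and the fit of all arrays. Cloned 1-cell embryos against oocytes (7 called) gave 4 in the fit of all arrays. With the covariate, the blastocyst against the morula gave 1 in clones (5 called) and 0 in IVF embryos (2 called). For differences of steps, the first step (1 called) gave 0 under quantile normalization and the covariate, 2 with array weights and 1 to 2 without 1 array. The step to the 4-cell stage (1 called) gave 0 under quantile normalization, array weights and the replicate block, and 0 to 1 without 1 array. The step to the morula (2 called) gave 4 under quantile normalization and 1 to 3 without 1 array. The step to the blastocyst (0 called) gave 1 with array weights and 0 to 1 without 1 array. The causes were not tested. The replicate numbers share only a number, and the block lost 7 calls of single genes and kept 209 of 216 values on their side of the threshold. Each gene had 1 probe set, so the planned change of probe set was not run. Clones 1 to 3 against oocytes and clones 4 and 5 against IVF embryos at the 1-cell stage, and the gene lists without clone 4 of the 8-cell stage, were chosen after seeing the data.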
